A study of Mus musculus with 6 samples.

Results

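The genes described are 39 components of the machinery that licenses, starts and carries out DNA replication. They were chosen by name as a gene group and not by their values, though with earlier results of these data known. Of these, 38 were measured by a probe set that the platform annotation gives to 1 gene, out of 22180 genes measured in all, and Rfc4 shares its probe set with Eif4a2 and was not used. Their expression was measured in DP42 cells, a mouse line of multiple myeloma (a cancer of plasma cells), after 24 h in 1 of 3 conditions: culture alone, co-culture with mouse B cells, which the design text calls the control, and co-culture with mouse neutrophils, which the labels also call IMC. Each condition has 2 arrays, and no genotype, treatment or animal age is given for any of them. The cell type field and the descriptions give the co-cultured samples as myeloma cells, while their titles and source names give only the partner cell, and they are read here as DP42 cells sorted from the co-culture. DP42 is a single cell line, the co-cultured populations were separated by flow sorting before RNA extraction, and the labels do not say that replicates were grown apart. The p-values therefore reflect only how far these arrays lie from each other, a spread that may be technical.

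Replication is prepared in G1, when the origin recognition complex, with Cdc6 and Cdt1, loads the MCM2-7 helicase on DNA. In S phase Cdc45 and the GINS complex bind that helicase and switch it on, and primase, polymerases alpha, delta and epsilon, the sliding clamp PCNA and its loader RFC copy the strands. Many of these genes are transcribed at the G1 to S transition under E2F factors, so their RNA is widely used as a mark of cycling cells, and in myeloma they belong to the proliferation programme of the tumour cells.

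The promoters of these genes are shown because E2F-type sites are the sequence they are best known for sharing. RefSeq promoters (build GRCm38.p6, 250 bases before to 50 after each start) were at hand for 32 of the 39 genes. The E2F-type motif was searched as TTTGGCGC, TTTCCCGC, TTTCGCGC or TTTGCCGC on both strands, where matches may overlap. It was found for 13 of the 32 genes (40.6%), against 2.60% of all 27025 genes in the promoter table and 3.26% of the 16990 measured ones. Among other genes in the brightness range of the members the motif is more common, with 245 genes holding a match and 3849 without. The CCAAT box, CCAAT on either strand, was found for 21 of the 32 (65.6%), against 41.1% of all genes. Both motifs were found for 8 of the 32 genes (25%), against 1.26% of all. A match describes the letters of the window and is not evidence of binding.

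The 4 promoters printed are those of the Mcm genes and of the gene with the largest difference in each role that hold an E2F-type match before the start. They are the 250 bases before the start, on the strand of the gene, with E2F-type matches in capitals. Orc1 lies at chr4:108579204-108579453 (plus strand), Mcm5 at chr8:75109259-75109508 (plus), Mcm6 at chr1:128359706-128359955 (minus) and Mcm7 at chr5:138171884-138172133 (minus).
Orc1: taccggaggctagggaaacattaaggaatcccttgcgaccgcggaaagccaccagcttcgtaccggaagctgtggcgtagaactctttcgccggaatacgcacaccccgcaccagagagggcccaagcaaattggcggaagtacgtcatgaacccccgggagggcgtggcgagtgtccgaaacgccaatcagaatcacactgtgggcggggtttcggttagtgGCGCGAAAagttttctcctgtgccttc
Mcm5: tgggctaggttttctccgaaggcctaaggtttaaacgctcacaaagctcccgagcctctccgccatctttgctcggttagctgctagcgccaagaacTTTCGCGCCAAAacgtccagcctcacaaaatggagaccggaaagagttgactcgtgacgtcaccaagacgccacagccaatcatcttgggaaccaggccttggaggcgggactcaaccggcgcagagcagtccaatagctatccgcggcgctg
Mcm6: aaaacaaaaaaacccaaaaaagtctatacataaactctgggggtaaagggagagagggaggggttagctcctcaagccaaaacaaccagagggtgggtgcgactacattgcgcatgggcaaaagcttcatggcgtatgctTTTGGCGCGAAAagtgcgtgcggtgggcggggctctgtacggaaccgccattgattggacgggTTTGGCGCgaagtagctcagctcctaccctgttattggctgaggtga
Mcm7: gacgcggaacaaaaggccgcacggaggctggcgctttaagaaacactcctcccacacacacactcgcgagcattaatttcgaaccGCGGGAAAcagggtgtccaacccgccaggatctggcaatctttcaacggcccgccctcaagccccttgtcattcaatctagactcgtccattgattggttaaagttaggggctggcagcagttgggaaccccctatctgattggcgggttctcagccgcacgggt

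In Orc1 the match begins 27 bases before the start and is on the opposite strand. Mcm5 holds an overlapping pair that begins at -153 and -149, TTTCGCGC on the gene's strand and TTTGGCGC on the opposite one. The same pair lies in the other order in Mcm6, at -110 and -106, and Mcm6 has a further TTTGGCGC at -47. In Mcm7 the printed promoter, 1 of its 2 in the table, holds TTTCCCGC on the opposite strand at -165 and TTTCGCGC at 17 bases after the start, outside the printed stretch. In Cdc6 (-138), Gins3 (-41) and Pola1 (-138) 1 match lay before the start, in Rfc3 matches lay on both sides of it, and in Cdt1, Mcm3, Pold1, Pole2 and Lig1 they lay after it.

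Before the comparisons, 3 features of the arrays bear on them. First, the B-cell arrays were unlike each other: across genes, which are not independent replicates, they correlated at r = 0.992 against 0.997 for the arrays of either other group. All 38 replication genes were higher in B-cell replicate 1 than in replicate 2, by 0.03 to 0.45 on the log2 scale with a median of 0.17, and so were 90.9% of the 5109 other genes in the same brightness range, whose median was also 0.17. Second, the arrays differed in a way that followed brightness. In neutrophil minus B-cell co-culture the median difference went from -0.18 among dim genes to 0.19 among genes near 9.19 on the log2 scale, and every replication gene was bright, with means over the arrays of 9.12 to 12.65, above the upper quartile of all genes (9.01). Over 1394 receptor genes of the olfactory and vomeronasal families, the mean per array was 5.51 to 5.56 alone, 5.27 and 5.59 beside B cells and 5.05 to 5.13 beside neutrophils. Finally, the mean of 7 plasma cell markers differed little between arrays, at 8.50 to 8.53 alone, 8.50 to 8.58 with B cells and 8.54 to 8.56 with neutrophils. That mean covers opposite moves of genes from 5.38 (Jchain) to 12.14 (Mzb1) in brightness. With neutrophils against B cells 5 of 7 were higher, from -0.31 (Tnfrsf17) to 0.19 (Irf4), beside 51.7% of all genes. Neutrophil markers (15 genes) stood at 6.45 to 6.53 alone, 6.50 to 6.59 with B cells and 6.97 to 7.01 with neutrophils. All 15 were higher with neutrophils than in either other group, beside 51.7% of all genes against B cells and 54.4% against culture alone. Of the 15, 1 (Ngp) passed limma's test as higher against B cells and 5 against culture alone, beside 0.0316% and 0.131% of all genes. Mature B-cell markers (8 genes) stood at 9.28 to 9.34 alone, 9.29 to 9.36 with B cells and 9.24 to 9.25 with neutrophils. Their brightness ran from 5.80 (Fcer2a) to 12.50 (Cd79b). With neutrophils 4 of 8 were higher than with B cells and 5 of 8 than alone. The lowest was Cr2, at -0.60 and -0.61. The part of these markers in the results below was not tested. In bulk RNA, fewer cells in S phase and less of each RNA per cell cannot be told apart.

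The first comparison asked whether replication genes differed between myeloma cells kept with neutrophils and those kept with B cells. All 38 had a higher mean with neutrophils, beside 51.7% of all genes, by 0.07 to 0.34 on the log2 scale, with a median of 0.14 (1.10-fold). None of the 38 passed limma's test (smallest adjusted p = 0.168), beside 0.0316% of all genes called higher, 0.018% called lower and 0.0496% in either direction. At an unadjusted p under 0.05, 6 were higher and 0 lower, beside 8.1% and 12% of all genes and 13.5% and 0.724% of the other genes in the same brightness range. The arrays of the groups did not overlap, with neutrophils higher, for 29 of 38, beside 30% of all genes and 63.1% of those of the same range. Among the 5109 genes of that range 95.4% had a positive difference, with a median of 0.15. The direction of the replication genes was thus that of most genes as bright as they are.

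Myeloma cells kept with neutrophils were next compared with those cultured alone, using the same neutrophil arrays. All 38 genes again had a higher mean with neutrophils, beside 54.4% of all genes, by 0.03 to 0.37, with a median of 0.18 (1.13-fold). In limma 0 of 38 passed (smallest adjusted p = 0.106), beside 0.131% of all genes called higher, 1.36% lower and 1.49% in either direction, and 0.0196% higher in the same brightness range. At an unadjusted p under 0.05, 7 were higher and 0 lower, beside 5.97% and 11.7% of all genes and 8.26% and 0.822% of the same brightness range. Arrays did not overlap, with neutrophils higher, for 37 of 38, all but Lig1, beside 35.6% of all genes and 74.8% of the range, and 0 did so with neutrophils lower, beside 3.29% of the range. In that range 91.7% of genes had a positive difference, with a median of 0.13.

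Last, B-cell co-culture was compared with culture alone, so that all 3 comparisons share arrays and are not independent. Here 21 of 38 genes were positive, beside 49.5% of all genes, the differences ran from -0.16 to 0.14, and the median was 0.01. In the same brightness range 39% of genes had a positive difference, with a median of -0.02. Of the 38, 0 passed in limma and 0 had an unadjusted p under 0.05, beside 0% of all genes called and 1.61% higher and 2.3% lower at an unadjusted p under 0.05 (2.02% lower in the same brightness range). The arrays did not overlap for 3 genes with B cells higher (Rfc3, Rfc5 and Rpa2) and for 2 with B cells lower (Mcm7 and Fen1), beside 13.5% of all genes in each direction and 6.71% higher and 16% lower in the same brightness range.

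**Figure D1:**
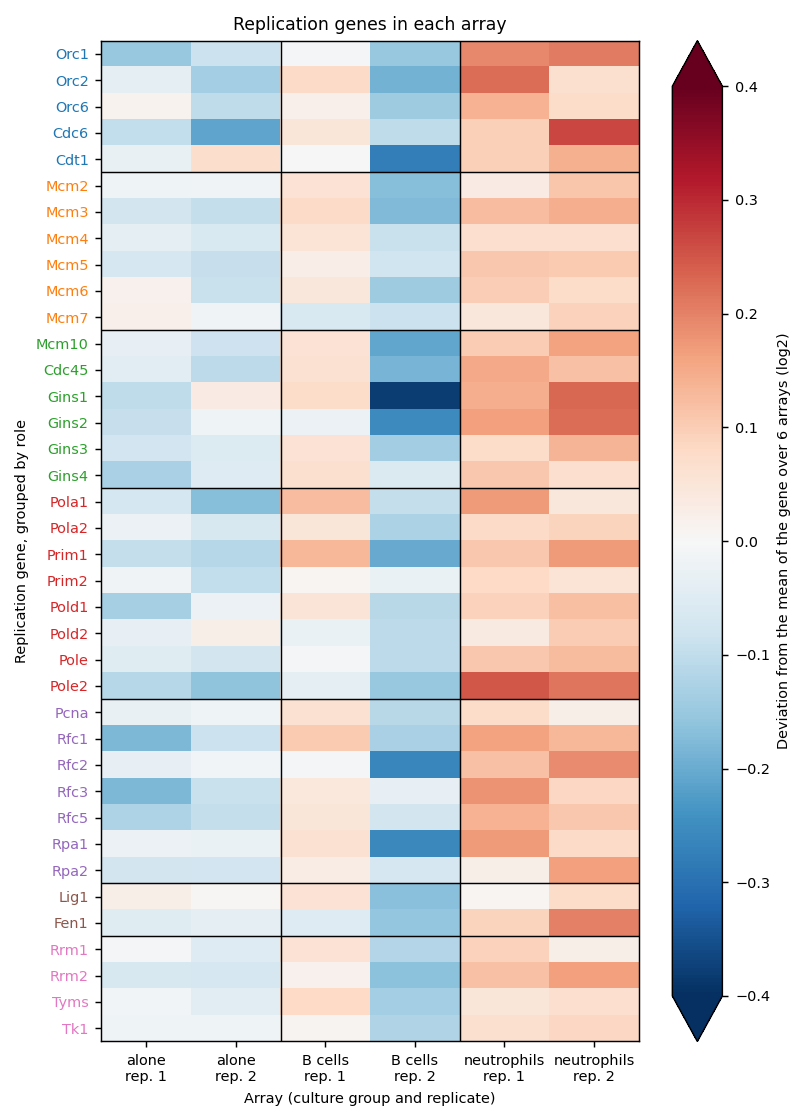
Deviation of each of the 38 replication genes (rows, grouped by role and coloured by it) from its own mean over the 6 arrays (columns, by culture group and replicate), on the log2 scale; red is higher. The neutrophil arrays held the highest value for 37 genes, 15 in replicate 1 and 22 in replicate 2, and B-cell replicate 2 the lowest for 26.

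Array by array, the highest of the 6 values lay in neutrophil replicate 2 for 22 genes, in neutrophil replicate 1 for 15 and in B-cell replicate 1 for 1, beside 48.9%, 34% and 9.34% of the genes in the same brightness range. The lowest value lay in B-cell replicate 2 for 26 genes and in each of the alone arrays for 6. Of the genes of the same brightness range, 72.5% also had their lowest value in B-cell replicate 2. Both neutrophil arrays stood above all 4 others for 29 of the 38, beside 52.6% of genes in that range. The 9 exceptions were Orc2, Mcm2, Pola1, Prim1, Pcna, Rpa2, Lig1, Rrm1 and Tyms. The whole spread of a gene over the 6 arrays was small, 0.16 to 0.61 with a median of 0.28.

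Among origin recognition and licensing genes (Orc1, Orc2, Orc6, Cdc6, Cdt1) the median difference was 0.21 against B cells and 0.23 against culture alone. Orc1, the ATPase subunit of the origin recognition complex on which the loading of the helicase depends, stood at 8.97 and 9.04 in culture alone, 9.11 and 8.97 beside B cells and 9.31 and 9.33 beside neutrophils (log2 values, replicates 1 and 2). The neutrophil arrays of Orc1 lay above all others. Its difference was 0.28 ± 0.10 (SE) against B cells (limma adjusted p = 0.200) and 0.32 ± 0.10 against culture alone (adjusted p = 0.157), and neither passed.

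Cdc6 recruits the helicase to origins together with the origin recognition complex. Its values were 9.88 and 9.77 in culture alone, 10.03 and 9.88 beside B cells and 10.08 and 10.25 beside neutrophils. The neutrophil arrays were above the rest, and lay farther apart than those of any other member (SD 0.12, n = 2). Cdc6 differed by 0.34 ± 0.11 from culture alone (adjusted p = 0.173), by 0.21 ± 0.11 from B cells (adjusted p = 0.290), and by 0.13 ± 0.11 between B cells and alone (adjusted p = 1.00).

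Cdt1, the other loader, which is degraded once S phase starts, stood at 10.03 and 10.13 in culture alone, 10.06 and 9.78 beside B cells and 10.15 and 10.20 beside neutrophils. B-cell replicate 2 was the low array. Against B cells Cdt1 was higher by 0.25 ± 0.11 (adjusted p = 0.254), against culture alone by 0.10 ± 0.11 (adjusted p = 0.639), and with B cells it was lower than alone, at -0.16 ± 0.11 (adjusted p = 1.00). The other members of this role, Orc2 and Orc6, were higher with neutrophils than with B cells by 0.20 and 0.17, and than alone by 0.23 and 0.15.

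The 6 genes of the MCM2-7 helicase, the ring that unwinds DNA at the fork, were close to each other, with differences of 0.09 (Mcm4) to 0.18 (Mcm3) against B cells and of 0.07 (Mcm7) to 0.22 (Mcm3) against culture alone. Mcm3 stood at 11.26 and 11.24 in culture alone, 11.41 and 11.16 beside B cells and 11.46 and 11.48 beside neutrophils. B-cell replicate 1 of Mcm3 lay nearer to the neutrophil arrays than to its own replicate. The difference of Mcm3 was 0.18 ± 0.11 against B cells (adjusted p = 0.333) and 0.22 ± 0.11 against alone (adjusted p = 0.327). For Mcm4 the 95% interval of the difference against B cells ran from -0.13 to 0.30, so these arrays set apart neither no difference nor one of 0.30.

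**Figure D2:**
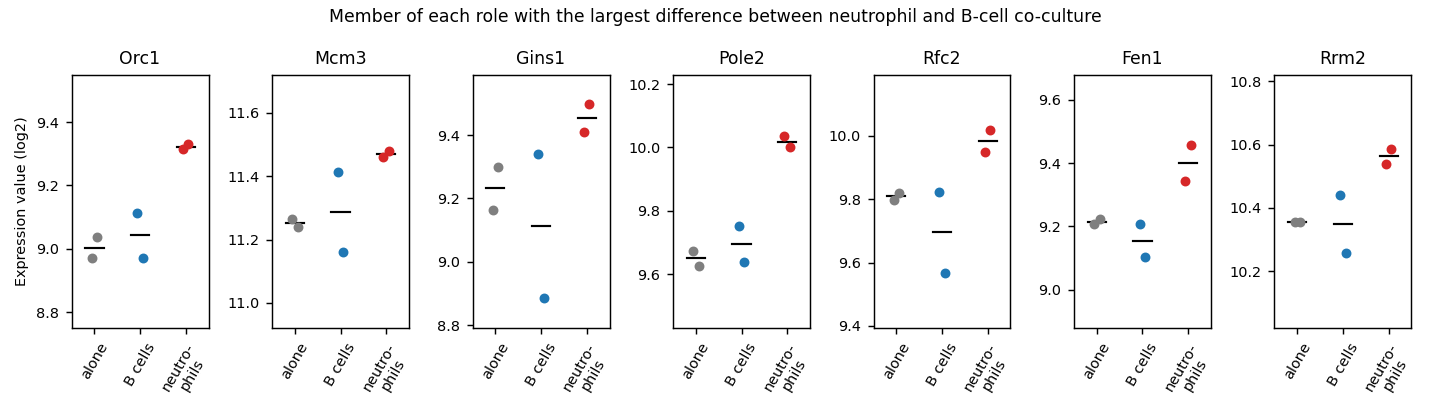
Log2 expression values of the gene of each role with the largest difference between neutrophil and B-cell co-culture; points are arrays, 2 a group, and lines are group means. Each panel spans 0.8 on the log2 scale but starts at its own value. Both neutrophil arrays lie above the other 4 in all 7 genes, but these were chosen for a large difference from B cells. The same held for 29 of the 38 replication genes and for 52.6% of genes in the same brightness range. The B-cell arrays of Gins1 lie farthest apart (9.34 and 8.89).

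The helicase activation genes comprised Cdc45, the 4 GINS subunits and Mcm10, which helps to open the loaded helicase. Their median difference was 0.20 against B cells and 0.20 against culture alone. Gins1 had the largest difference of all 38 against B cells, with 9.16 and 9.30 in culture alone, 9.34 and 8.89 beside B cells and 9.41 and 9.50 beside neutrophils. That difference, 0.34 ± 0.15 (adjusted p = 0.245), came with the widest B-cell spread among the members (SD 0.32, n = 2). Against culture alone Gins1 stood 0.22 ± 0.15 higher (adjusted p = 0.436).

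Gins2 was steadier, at 9.70 and 9.78 in culture alone, 9.77 and 9.54 beside B cells and 9.96 and 10.02 beside neutrophils. The neutrophil arrays of Gins2 lay above the other 4. It was higher by 0.33 ± 0.11 against B cells (adjusted p = 0.186) and by 0.25 ± 0.11 against alone (adjusted p = 0.278). Gins4, of the same complex, had values of 10.43 and 10.51 in culture alone, 10.62 and 10.50 beside B cells and 10.66 and 10.63 beside neutrophils. For Gins4 the B-cell arrays came close to the neutrophil arrays, with a difference of 0.08 ± 0.10 (adjusted p = 0.580), against 0.18 ± 0.10 from culture alone (adjusted p = 0.360). Cdc45, Mcm10 and Gins3 were higher than with B cells by 0.20, 0.21 and 0.15.

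Polymerase and primase genes (Pola1, Pola2, Prim1, Prim2, Pold1, Pold2, Pole, Pole2) had a median difference of 0.13 against B cells and 0.18 against culture alone. Pole2, the second subunit of the leading-strand polymerase epsilon, had the largest difference of all 38 against culture alone. Its values were 9.67 and 9.63 in culture alone, 9.75 and 9.64 beside B cells and 10.04 and 10.001 beside neutrophils. Both neutrophil arrays of Pole2 stood farther above the other 4 than those 4 spread among themselves. The difference was 0.37 ± 0.09 against alone (1.29-fold, 95% interval 0.15 to 0.58, adjusted p = 0.106) and 0.32 ± 0.09 against B cells (1.25-fold, adjusted p = 0.168). In a fit of only the 4 arrays of neutrophils and culture alone, 1 of 38 passed, Pole2 (adjusted p = 0.0386), beside 6.03% of all genes. Its partner in the complex, the catalytic subunit Pole, was higher by 0.17 against B cells and 0.18 against alone, but at -0.04 and 0.03 when its dim second probe set was averaged in. The primase subunits Prim1 and Prim2 were higher by 0.17 and 0.08 against B cells.

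PCNA, the clamp that holds polymerases on DNA, differed least among the 38 from B-cell co-culture. Pcna was higher with neutrophils by 0.07 in both comparisons, with 95% intervals of -0.15 to 0.30. The clamp loader genes were less alike. Rfc2 stood at 9.80 and 9.82 in culture alone, 9.82 and 9.57 beside B cells and 9.95 and 10.02 beside neutrophils. Again B-cell replicate 2 was the low array, and the difference was 0.29 ± 0.11 against B cells (adjusted p = 0.217) and 0.18 ± 0.11 against culture alone (adjusted p = 0.414).

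Rfc3 showed another order, with 9.12 and 9.21 in culture alone, 9.34 and 9.26 beside B cells and 9.48 and 9.38 beside neutrophils. In Rfc3 both co-cultures lay above culture alone without overlap. It was higher with neutrophils by 0.27 ± 0.10 than alone (adjusted p = 0.212), by 0.13 ± 0.10 than with B cells (adjusted p = 0.420), and higher with B cells than alone by 0.14 ± 0.10 (adjusted p = 1.00). Rfc1 and Rfc5 were higher with neutrophils than alone by 0.28 and 0.23. Of the genes of RPA, which coats single-stranded DNA, Rpa1 was higher than with B cells by 0.22 (0.07 with its second probe set averaged in) and Rpa2 by 0.11.

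Fen1 trims the flaps of Okazaki fragments, and Lig1 seals them. Fen1 stood at 9.21 and 9.22 in culture alone, 9.21 and 9.10 beside B cells and 9.35 and 9.46 beside neutrophils, and its neutrophil arrays lay above the others. The difference of Fen1 was 0.25 ± 0.10 against B cells (adjusted p = 0.223) and 0.19 ± 0.10 against culture alone (adjusted p = 0.344), and 0.14 and 0.04 with its second probe set averaged in. Lig1 had values of 10.46 and 10.44 in culture alone, 10.50 and 10.27 beside B cells and 10.45 and 10.51 beside neutrophils. Its groups overlapped in both comparisons with neutrophils, at 0.03 ± 0.11 against alone (adjusted p = 0.905) and 0.10 ± 0.11 against B cells (adjusted p = 0.573).

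Genes of deoxynucleotide supply were among the least different. Rrm2, the S-phase subunit of ribonucleotide reductase, had values of 10.36 and 10.36 in culture alone, 10.44 and 10.26 beside B cells and 10.54 and 10.59 beside neutrophils. The neutrophil arrays of Rrm2 were the highest, and it stood 0.21 ± 0.10 above B cells (adjusted p = 0.262) and 0.21 ± 0.10 above culture alone (adjusted p = 0.318). With its second probe set averaged in, Rrm2 stood 0.12 and 0.22 higher. Rrm1, its large subunit, was higher by 0.09 in both comparisons. Thymidylate synthase, Tyms, also differed by 0.09 in both, and the thymidine kinase Tk1 by 0.13 against B cells and 0.09 against alone.

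Because the differences followed brightness, each was also read against the 500 genes nearest in mean value. Against B cells the median of the 38 genes was then 0.025, with 25 genes above 0 and 13 below, from -0.05 (Rfc3 and Gins4) to 0.17 (Gins2) and 0.16 (Pole2). Against culture alone the median was 0.049, with 32 above 0 and 6 below, from -0.10 (Lig1) and -0.03 (Cdt1) to 0.20 (Cdc6) and 0.23 (Pole2). For B cells against alone it was 0.023, with 26 above and 12 below, from -0.12 (Cdt1) and -0.09 (Rfc2) to 0.15 (Cdc6) and 0.17 (Rfc3). These 3 medians carry no test. In single arrays, the median deviation of the members from genes of equal brightness was -0.024 and -0.033 in culture alone, 0.022 and -0.004 beside B cells and 0.025 and 0.023 beside neutrophils. The neutrophil arrays lay above both alone arrays by this measure, and B-cell replicate 1 lay next to them. Before that subtraction the medians of the deviations were -0.05 and -0.07 in culture alone, 0.05 and -0.14 beside B cells and 0.10 and 0.11 beside neutrophils.

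**Figure D3:**
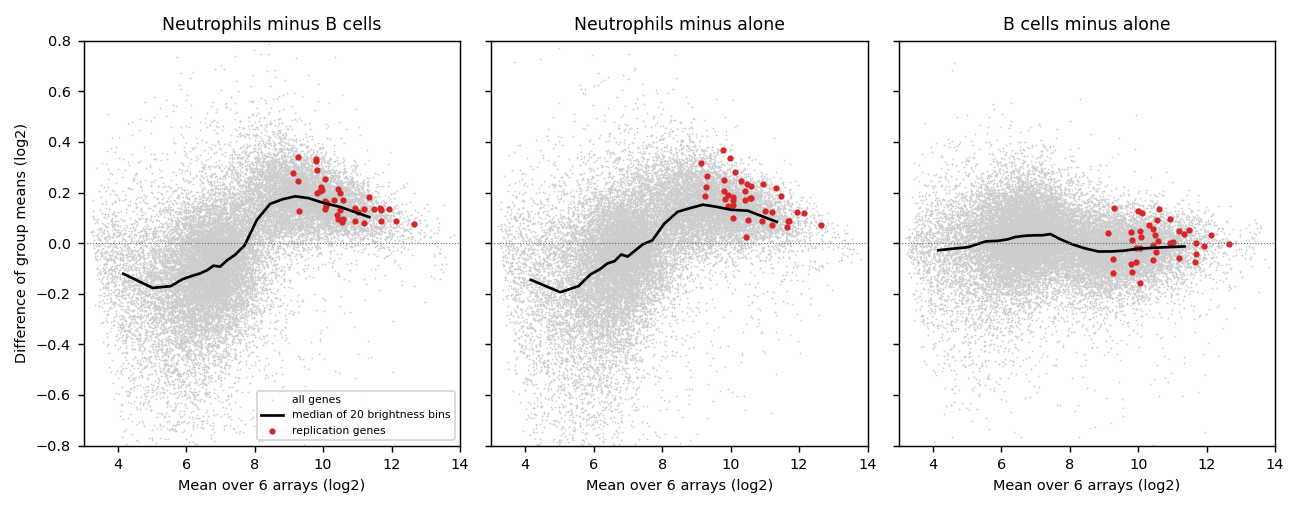
Difference of group means (log2) against the mean over 6 arrays (log2) for all genes (grey), the 38 replication genes (red) and the median of 20 brightness bins (line), in the 3 comparisons. The vertical axis ends at 0.8 on either side of 0, which leaves out 211, 371 and 12 genes and no replication gene; in both neutrophil comparisons the line lies below 0 for dim genes and above 0 where the replication genes lie.

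By role, licensing genes had the highest medians relative to genes of equal brightness, 0.06 against B cells and 0.10 against culture alone. The MCM2-7 genes stood at 0.04 and 0.05, helicase activation genes at 0.04 and 0.06, and polymerase and primase genes at 0.00 and 0.05. Clamp, loader and RPA genes stood at 0.00 and 0.04, and deoxynucleotide genes at -0.01 in both. The 2 lagging-strand genes stood at 0.00 and -0.03, the lowest of the roles against culture alone. For B cells minus alone the order was another. Clamp, loader and RPA genes were highest there at 0.08, then polymerase and primase genes at 0.07 and licensing genes at 0.05. These are descriptions of 2 to 8 genes each, and the differences between roles were not tested. Members with an E2F-type match had a median difference of 0.18 against culture alone (13 genes) and those without one 0.16 (18 genes). Against B cells the order was the other way, at 0.14 and 0.15. Among the other genes of the same brightness range, the 245 with a match and the 3849 without stood at 0.13 and 0.13 against culture alone and at 0.16 and 0.15 against B cells. Relative to genes of equal brightness, the members' medians were 0.10 with a match and 0.03 without against culture alone, and 0.04 and 0.01 against B cells. For B cells minus alone, a comparison without neutrophils, they were 0.06 with a match and 0.01 without. This split was chosen after seeing the data and was not tested.

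**Figure D4:**
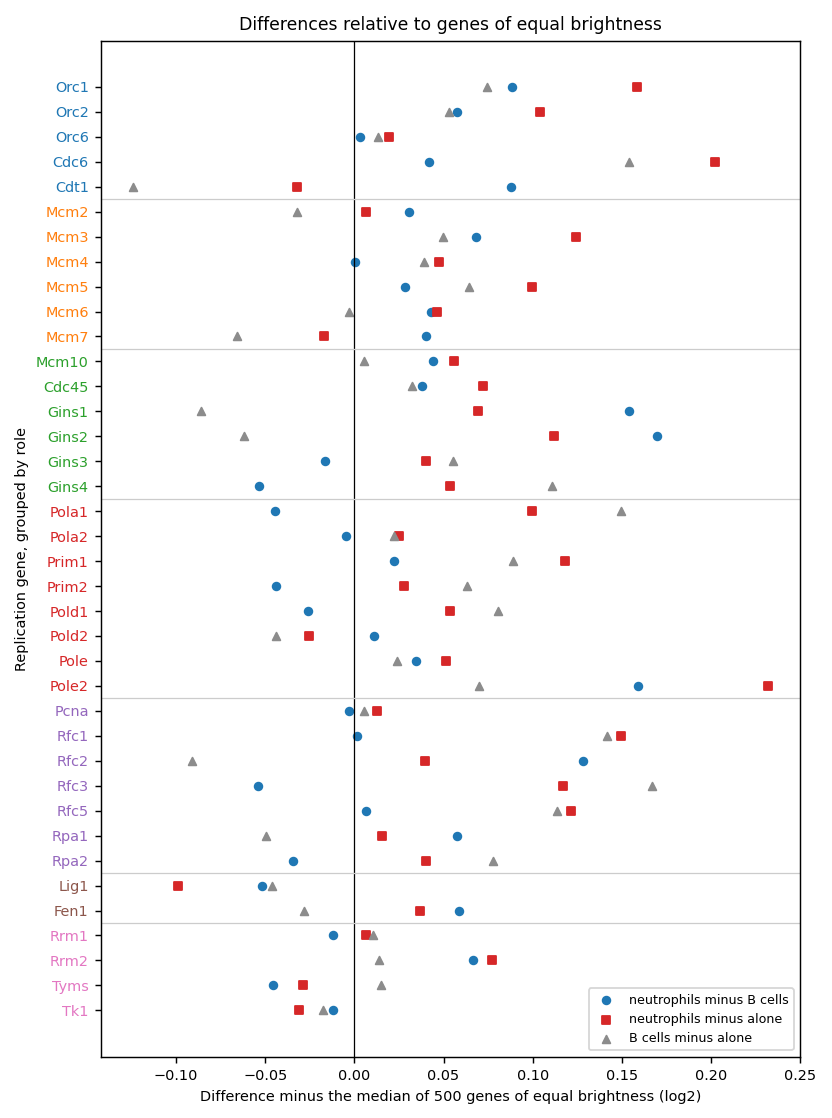
Difference of each of the 38 replication genes minus the median difference of the 500 genes of equal brightness (log2, horizontal axis), in the 3 comparisons (marker shapes); rows are genes, grouped by role and coloured by it. Pole2 lies farthest to the right against culture alone (0.23), Lig1 farthest to the left (-0.10), and most genes lie within 0.1 of 0.

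Other genes of the pathway were taken from lists chosen by name. Beside their counts, 51.7% of all genes were higher with neutrophils than with B cells and 54.4% than alone. In the brightness range of the members these shares were 95.4% and 91.7%. At an unadjusted p under 0.05, 8.1% and 5.97% of all genes were higher, and 13.5% and 8.26% of that range. Of 25 further origin and replisome genes 25 were higher with neutrophils than with B cells (median 0.17) and 25 than alone (median 0.14), of which 0 passed in limma in either comparison and 1 and 3 had an unadjusted p under 0.05. The highest against B cells was Mcm8, a helicase of recombination repair, at 0.30 (adjusted p = 0.250), and the lowest Recql4, at 0.05. Gmnn, geminin, the inhibitor of Cdt1, stood at 0.10 and 0.02, and Cdc7, the kinase that fires origins, at 0.23 and 0.15 against B cells and alone.

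Fork protection and chromatin assembly genes (14) were all higher in both comparisons, with medians of 0.21 and 0.18, 0 past limma's test, and 4 and 2 at an unadjusted p under 0.05. Tipin, the partner of Timeless at the fork, stood 0.42 above B cells (adjusted p = 0.152) and 0.20 above culture alone (adjusted p = 0.364). Of 22 measured G1 to S regulators all were higher in both comparisons, with medians of 0.14 and 0.16, 0 past limma's test, and 3 and 5 at an unadjusted p under 0.05. E2f1, E2f2 and E2f3, the activating E2F factors, stood at 0.28, 0.19 and 0.25 against B cells and at 0.25, 0.28 and 0.27 against alone. Their limma adjusted p ran from 0.257 to 0.350. The other E2F genes measured, E2f4, E2f7 and E2f8, stood at 0.09, 0.19 and 0.16 against B cells. Against alone these were at 0.04, 0.22 and 0.31. Inhibitors of G1 to S kinases were also higher, Cdkn1b by 0.31 and 0.30, Cdkn2c by 0.30 and 0.25 and Cdkn1a by 0.11 and 0.12. For these inhibitors limma's adjusted p ran from 0.182 to 0.514. Of 10 further deoxynucleotide genes all were higher, with medians of 0.14 and 0.13, 0 past limma's test, and 1 and 0 at an unadjusted p under 0.05. In the brightness range of the members, 95.4% and 91.7% of other genes were higher against B cells and alone. At an unadjusted p under 0.05, 13.5% and 8.26% of them were higher. Relative to genes of equal brightness the medians of these 4 lists were -0.02 to 0.06 against B cells and 0.00 to 0.05 against culture alone.

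Type I interferon genes, a list known from earlier results of these data, give the scale of differences that did pass on the same arrays. Of 22 measured, 5 passed limma's test as higher against B cells and 11 against culture alone, beside 0.0316% and 0.131% of all genes. In each comparison 19 of 22 were positive, and Ifit1, Ifit3 and Rsad2 were negative in both. The medians of the list were 0.57 and 0.50, and relative to genes of equal brightness 0.46 and 0.45. Because the list was chosen with these results known, its counts are not a test. For the replication genes 0 and 0 of 38 passed, and the medians were 0.14 and 0.18, or 0.025 and 0.049 relative to genes of equal brightness.

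The count of replication genes that passed depended on the B-cell arrays. Without B-cell replicate 1, 12 of 38 passed against B cells, all higher (Orc1, Cdt1, Mcm3, Mcm10, Cdc45, Gins1, Gins2, Prim1, Pole2, Rfc2, Rpa1 and Rrm2), while 5453 of 22180 genes (24.6%) passed in all, and the median was 0.24. The B-cell group is then 1 array, the lowest of the 6 for 26 of the 38 genes, and is assumed to vary like the other groups, which alone give the spread. Without B-cell replicate 2, 0 passed in limma, 3 of 38 were higher at an unadjusted p under 0.05, beside 9.15% of all genes in either direction, and the median was 0.07. Against culture alone, leaving out either B-cell array gave the same result as the fit of 4 arrays, with Pole2 passing beside 6.03% of all genes, because a lone B-cell array adds nothing to the spread. With values normalised again so that differences no longer follow brightness, the median was 0.03 (quantile) and 0.02 (cyclic loess) against B cells and 0.06 and 0.05 against alone. Of the 38 genes 27 and 25 were then positive against B cells and 32 and 32 against alone. The share of all genes that was positive was not counted under these settings. Their median was 0.014 (quantile) and 0 (cyclic loess) against B cells and 0.021 and 0.001 against alone.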

How the data were processed

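Total RNA of 6 samples was measured on Affymetrix arrays, with 2 arrays in each of 3 groups. The authors deposited log2 values for each probe set, made with RMA (robust multi-array average: background subtraction, normalisation between arrays, summary over probes), per the submitters' processing notes. The log2 scale was taken from the values (3.04 to 14.03, array medians 7.09 to 7.22). Software version, annotation build, array model and any later centring are not given in the sources used here. RMA hides a change shared by most genes and compresses dim signals. The number of arrays limits the precision.

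The platform annotation gives 1 gene to 23521 of the 41345 probe sets, several to 1814 and none to 16010. The brightest probe set per gene over the 6 arrays was kept, which left 22180 genes. Groups came from the co-culture label. Group means were fitted with limma 3.58.1 (R 4.3.3) on all 6 arrays, with 3 residual and 5.55 prior degrees of freedom. The eBayes p-values are two-sided, were adjusted over the 22180 genes by Benjamini-Hochberg, and were called under 0.05. Differences relative to genes of equal brightness are a gene's difference minus the median difference of the 500 non-member genes nearest to it in mean value, and carry no test. The fit was tested on simulated data. Plots used matplotlib 3.10.9 in Python 3.11.15.

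The members, gene lists and tests were chosen with earlier results of these data known. Values in every array are given for the member of each role with the largest difference between neutrophil and B-cell co-culture, and for the 2 members highest and the 2 lowest relative to genes of equal brightness in each comparison. Members outside that rule are named by role and with single values. Alternatives covered the genes tested, eBayes settings, normalisation (quantile, median centring, cyclic loess), probe set averaging, arrays in the fit, a replicate block, leaving out each array, the threshold, and olfactory and vomeronasal receptor genes as covariate or left out.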

Additional observations from a re-analysis of the deposited data

How the results depend on the processing

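The number of arrays limits the precision, with a standard error of 0.09 to 0.15 for a member's difference, and in none of the 3 comparisons did a replication gene pass in the fit reported. Leaving out each array in turn gave 0 to 12 of 38 genes passing for neutrophils minus B cells. It gave 0 to 1 for neutrophils minus alone and 0 to 0 for B cells minus alone. The 12 came without B-cell replicate 1, where 24.6% of all genes passed and the B-cell group is 1 array. The 1 came when either B-cell array was left out, beside 6.03% of all genes. The medians ran from 0.065 to 0.236, from 0.171 to 0.185 and from -0.09 to 0.103, and relative to genes of equal brightness from 0.005 to 0.026, from 0.049 to 0.057 and from 0.01 to 0.041. For neutrophils minus alone, 1 of 38 genes (Pole2) passed in the fit of the 4 arrays compared, beside 6.03% of all genes. At an unadjusted p under 0.05 the counts were 6 against B cells and 7 against alone, all higher. Beside them, 20.1% and 17.7% of all genes had such a limma p in either direction. In the same brightness range 13.5% and 8.26% were higher at that threshold.

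The medians against B cells and alone were 0.023 and 0.05 under cyclic loess, 0.032 and 0.064 under quantile normalisation, and -0.029 and -0.064 when the receptor mean entered as a covariate, which follows the neutrophil arrays and so takes up part of the comparison. Relative to equal brightness, the median against B cells was 0.009 with 2000 neighbours, 0.01 with the mean of probe sets and -0.009 with the covariate. Against alone it was 0.019 with the covariate, and for B cells minus alone 0.037 with the mean of probe sets. Median centring moved the median of all genes to 0.08, 0.06 and -0.03 in the 3 comparisons.

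Against B cells and against alone, 11 and 6 of the 38 genes changed sign under quantile normalisation, 13 and 6 under cyclic loess, 23 and 26 with the covariate, and 1 (Pole, -0.04) and 0 with the mean of probe sets. The cause was not tested. Values follow only for the genes described array by array. Under quantile normalisation those that changed sign were Gins4 (-0.053), Rfc3 (-0.048) and Lig1 (-0.052) against B cells, Lig1 (-0.091) and Cdt1 (-0.028) against alone, and Rrm2 (0.015) for B cells minus alone. Cyclic loess gave -0.064, -0.043, -0.058, -0.1, -0.036 and 0.019 for the same genes in that order, and the mean of probe sets gave 0.106 for Rrm2 in B cells minus alone. With the covariate the values of such genes against B cells were -0.069 for Mcm3, -0.156 for Gins1, -0.04 for Gins4, -0.143 for Lig1 and -0.05 for Cdt1. Against alone they were -0.113 for Mcm3, -0.431 for Gins1, -0.187 for Rfc2, -0.048 for Rrm2, -0.09 for Gins2, -0.286 for Lig1 and -0.301 for Cdt1. For B cells minus alone they were -0.01 for Orc1 and -0.043 for Mcm3. Leaving out arrays gave Lig1 -0.019 to 0.208 against B cells and -0.006 to 0.058 against alone. For B cells minus alone it gave Orc1 -0.032 to 0.11, Mcm3 -0.091 to 0.162, Gins1 -0.347 to 0.107, Pole2 -0.013 to 0.103, Rfc2 -0.241 to 0.014, Rrm2 -0.099 to 0.084, Gins2 -0.199 to 0.031 and Lig1 -0.182 to 0.045.

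Counts over all genes were 11, 331 and 0 in the 3 comparisons. They were 91, 90 and 1 among genes at or above median brightness, 33, 353 and 1 with trend and robust eBayes, 1, 22 and 0 with quantile normalisation, 62, 555 and 0 with median centring, 6, 35 and 0 with cyclic loess, and 1, 1338 and 0 with the 4 arrays compared. At an adjusted p under 0.10 they were 30, 750 and 0, without receptor genes 10, 109 and 0, and with the covariate 0, 0 and 0 (777, 1254 and 2646 at an unadjusted p under 0.05, limma). Leave-one-out fits gave 1 to 5453 and 5 to 1338 in the comparisons with neutrophils. The replicate block gave 9, 373 and 0 and 0 replication genes, but the numbers did not pair the arrays: deviations of same-numbered arrays correlated at -0.074 (alone and B cells), 0.065 (alone and neutrophils) and -0.151 (B cells and neutrophils). Crossing the B-cell numbers, chosen after seeing the data, gave 299, 742 and 0.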

Other observations

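Mitotic genes, which act after replication is complete, were higher with neutrophils for 22 of 23 against B cells (median 0.12) and for 22 of 23 against culture alone (median 0.14), and 0 passed limma's test in either, with 3 and 1 at an unadjusted p under 0.05. In the brightness range of the replication genes, 95.4% and 91.7% of other genes were higher against B cells and alone. At an unadjusted p under 0.05, 13.5% and 8.26% of them were higher. Relative to genes of equal brightness the medians of the mitotic genes were -0.01 and 0.02. The exceptions, named after their values were seen, were Ccnb2, a mitotic cyclin, at -0.03 against B cells, and Cdc20, an activator of the anaphase-promoting complex, at -0.07 against alone. Cdc20 stood at 11.22 and 11.21 in culture alone, 11.07 and 10.96 beside B cells and 11.11 and 11.20 beside neutrophils, so that both co-cultures lay below culture alone.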
